A study of Mus musculus with 6 samples.

Results

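Retinal ganglion cells (RGCs), the neurons that send the axons of the optic nerve, are recognised by a small set of transcription factors and RNA-binding proteins. The 10 genes examined here were the Brn3 genes (Pou4f1, Pou4f2 and Pou4f3), the Islet genes (Isl1 and Isl2), the early B-cell factor genes (Ebf1, Ebf2 and Ebf3) and the Rbpms genes (Rbpms and Rbpms2), chosen by gene symbol, and all 10 were found among the 24060 genes of the count table. The RGCs came from C57BL/6 mice, with 3 samples from embryonic day 18 (E18, replicates 1, 3 and 4) and 3 from postnatal day 5 (P5, replicates 6, 8 and 9). At both ages the retinas were dissociated with papain, macrophages were removed, and the cells were held on dishes by an antibody against CD90 (Thy1), with no genetic or drug treatment. The study compared the ages because RGCs extend axons readily at E18 and have lost much of that capacity by P5. The labels do not say how many animals or litters a sample holds, so p-values measure the spread between these samples, which may be technical.

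Brn3 proteins are POU-homeodomain factors and Islet proteins are LIM-homeodomain factors. Pou4f2 and Isl1 are switched on in newly formed RGCs, where they act together downstream of Atoh7 to start the RGC gene program, and Pou4f1, Pou4f3, Isl2 and the Ebf genes follow them in all RGCs or in subsets. Rbpms and Rbpms2 bind RNA and serve as markers of RGCs in the mature retina, although vascular and other muscle cells also express them.

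The deposited counts summed to between 81213639 and 114512853 reads per sample. The 10 genes were deeply covered, from 499 reads for Ebf2 in E18 replicate 4 to 70088 reads for Pou4f1 in P5 replicate 8, so that the spread between samples and not counting error set the precision. Levels are given as CPM, counts scaled to a common library size after normalization by the trimmed mean of M-values (TMM). A positive log2 fold change means a higher level at E18, and each comes with its standard error (SE) and with a p-value from the quasi-likelihood test of edgeR, adjusted over the 16449 genes tested. The other pan-RGC markers, 11 genes led by Nefl, summed to 9204 to 10713 CPM at E18 and 9090 to 10847 CPM at P5. Of these 11, 3 were called higher at E18 (beside 20.8% of all genes tested), 4 lower (beside 22.5%) and 4 were not called. Among the lower ones was Thy1, the antigen used for panning, with 212, 217 and 312 CPM at E18 and 499.5, 469 and 690 CPM at P5 (log2 fold change -1.16, SE 0.189, edgeR adjusted p = 0.00197). Thy1 was thus 2.24-fold higher at P5, and Nefh, Slc17a6 and Nefl were 3.70-fold, 2.63-fold and 1.61-fold higher. The 3 called the other way, Gap43, Tubb3 and Sncg, were 1.42-fold, 1.40-fold and 1.32-fold higher at E18. The samples did not hold equal amounts of other retinal RNA. Starburst amacrine markers, 7 genes led by Megf10, summed to 279 and 553 CPM in E18 replicates 1 and 3, against 43.3 CPM in E18 replicate 4 and 41.5 to 44.4 CPM at P5. The 12 genes of progenitors and dividing cells, led by Ccnd1, stood at 411, 105 and 39.99 CPM in E18 replicates 1, 3 and 4 and at 29.0 to 43.9 CPM at P5. Among them 7 of 12 were called higher at E18 and none lower, beside the same 20.8% and 22.5% of all genes. In bulk RNA, fewer cells of a type cannot be told apart from less RNA per cell.

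The 10 genes did not move as one group. Isl1, Isl2 and Ebf1 were higher at E18, Ebf2, Pou4f3 and Rbpms2 were lower at E18, and Pou4f1, Pou4f2, Ebf3 and Rbpms did not pass the threshold of 0.05. That is 6 of 10 genes called, beside 43.4% of all genes tested, with 3 higher at E18 (20.8% of all genes) and 3 lower (22.5%). The CPM values of the ages did not overlap for the same 6 genes, beside 56.1% of all genes, and 2 of 10, Isl1 and Ebf2, were called with at least a 2-fold difference, beside 15.9%. These shares are close to those of the whole table, so what the genes show lies in which members of each family moved and which did not.

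**Figure D1:**
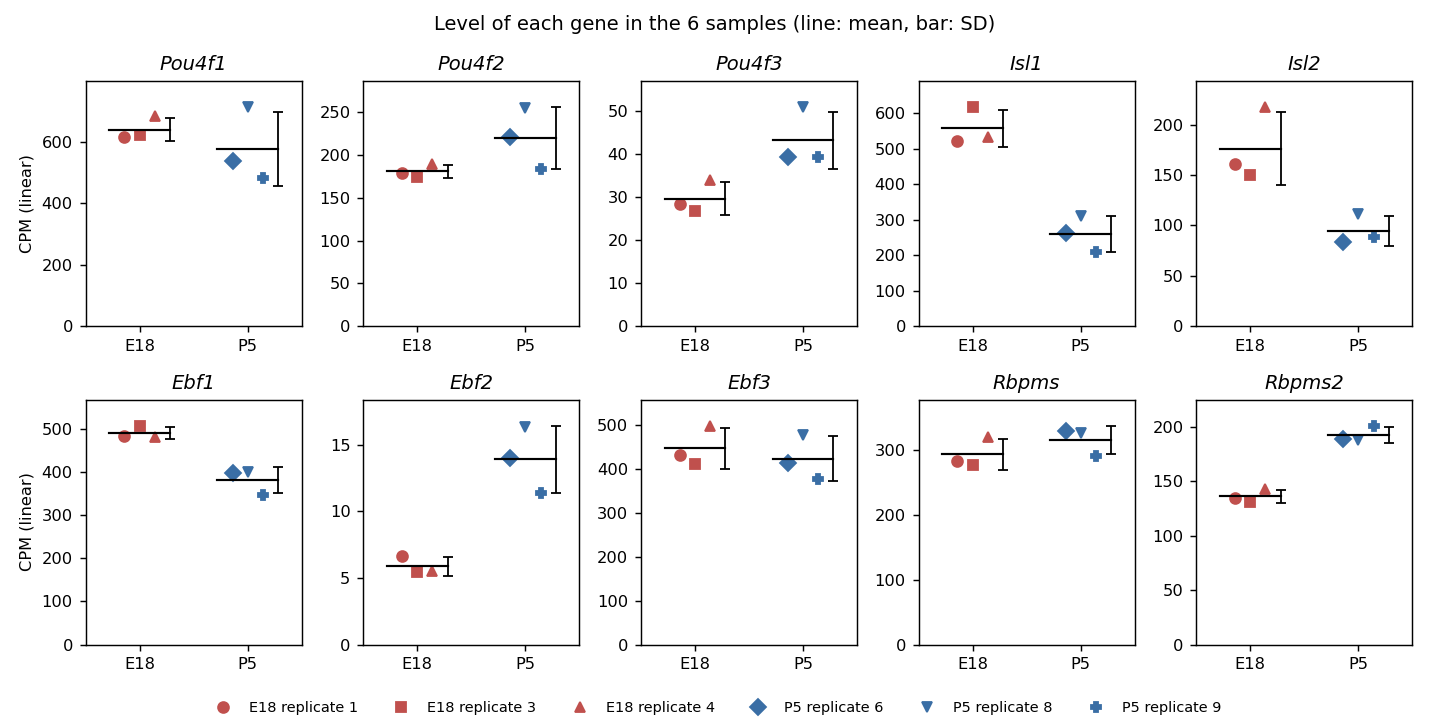
CPM on a linear axis for each of the 10 genes, with 1 symbol per sample, the mean as a line and the SD as a bar for 3 samples per age. The ages separate for Isl1, Isl2, Ebf1, Ebf2, Pou4f3 and Rbpms2, and P5 replicate 8 is the highest P5 sample for 8 of the 10 genes.

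Both Islet genes fell between E18 and P5. Isl1 (NM_021459, ENSMUSG00000042258.13, chromosome 13 of mm10, 116298281 to 116309689, minus strand), a factor required for RGC differentiation and survival, had 522, 617 and 533 CPM in E18 replicates 1, 3 and 4 and 262, 309 and 207 CPM in P5 replicates 6, 8 and 9. Every E18 sample lay above every P5 sample, by a wide gap. The means were 557 ± 52.0 and 259.6 ± 51.0 CPM (SD, n = 3 each). The log2 fold change was 1.10 (SE 0.146, edgeR adjusted p = 0.000857), a 2.15-fold difference with a 95% interval of 1.71 to 2.70. Isl2 (NM_027397, ENSMUSG00000032318.12, chromosome 9, 55538672 to 55546180, plus strand), which marks RGCs that project to the opposite side of the brain, had 162, 149.8 and 218 CPM at E18 and 83.8, 112 and 88.1 CPM at P5. E18 replicate 4 stood above the other E18 samples, and the ages did not overlap. Its means were 176 ± 36.2 and 94.6 ± 15.1 CPM (SD, n = 3 each), which gave a log2 fold change of 0.90 (SE 0.163, edgeR adjusted p = 0.00314), or 1.86-fold with an interval of 1.44 to 2.41. Both calls held in each of the 14 alternative analyses set for them, with log2 fold changes of 0.96 to 1.23 for Isl1 and 0.72 to 1.02 for Isl2 over the fits that each lacked one sample.

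The upstream sequences of the Islet genes are shown because these were the only family here whose members were all called in the same direction. They are the 250 bases that end at the annotated start in RefSeq (GRCm38.p6, the assembly of mm10), written 5′ to 3′ on the strand of the gene, with the motif CCAAT in capitals. The window of Isl1 lies at chr13:116309689-116309938 on the minus strand and that of Isl2 at chr9:55540899-55541148 on the plus strand. The gene spans given above are from another annotation (GENCODE). Its Isl2 span starts at 55538672, before the RefSeq start, so the Isl2 window lies inside that span.
Isl1: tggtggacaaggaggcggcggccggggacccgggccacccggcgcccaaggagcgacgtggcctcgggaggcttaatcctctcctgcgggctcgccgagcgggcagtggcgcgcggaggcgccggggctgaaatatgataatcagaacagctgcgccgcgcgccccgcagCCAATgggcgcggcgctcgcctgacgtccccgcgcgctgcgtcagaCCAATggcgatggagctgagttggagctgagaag
Isl2: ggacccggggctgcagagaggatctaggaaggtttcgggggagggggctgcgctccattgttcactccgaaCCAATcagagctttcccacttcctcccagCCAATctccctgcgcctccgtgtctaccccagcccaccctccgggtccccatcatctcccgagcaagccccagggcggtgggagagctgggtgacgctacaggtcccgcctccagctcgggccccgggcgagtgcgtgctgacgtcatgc
The Isl1 window was 71.2% G and C and the Isl2 window 66.8%, and each held CCAAT at 2 places. The motif, sought on both strands, was in 33.8% of the 32851 upstream windows of the table. Among the 7 of 10 genes with a window in the table, it was also in that of Rbpms2. TGACGT, the core of a cyclic AMP response element, was on either strand in 6.47% of all windows and in those of Isl1, Isl2 and Ebf3, without overlapping CCAAT. The letters ATTAAT (a Brn3 core) and TAATTA (a homeodomain core), sought on both strands, were in 4.39% and 4.84% of all windows and in no window of the 7 genes.

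Isl1 is also made by starburst amacrine cells and bipolar cells, so the markers of these cells were set beside it. Of the 7 starburst genes, 6 were higher at E18 and none lower, beside 20.8% and 22.5% of all genes tested. Their sum is given by sample above. Chat, the acetylcholine-synthesising enzyme that defines these cells, had 5.59, 10.9 and 0.287 CPM in E18 replicates 1, 3 and 4 and 0.237 to 0.797 CPM at P5. Not every starburst gene of E18 replicate 4 was at its P5 level. Slc5a7 had 8.44 CPM there against 2.71 to 4.33 CPM at P5, and Slc18a3 had 1.10 against 0.282 to 0.823 CPM. Megf11 lay below, with 21.3 against 24.1 to 29.8 CPM, and Chat, Sox2, Megf10 and Fezf1 fell within the P5 range. E18 replicate 4, with a starburst sum at the P5 level, had 533 CPM of Isl1 and 218 CPM of Isl2. Its log2 difference from the P5 samples, a value from a single library that was set apart after the data were seen and that gives no spread at E18, was 1.05 for Isl1 and 1.21 for Isl2. The part of starburst RNA in the Islet levels was not tested. The 9 bipolar genes, led by Prkca, summed to 50.2 to 74.8 CPM at E18 and 70.3 to 98.2 CPM at P5. Of the 7 tested, 2 were higher and 3 lower at E18, beside the same shares of all genes. Vsx1 and Grm6, which define subsets of bipolar cells, did not exceed 0.053 CPM in any sample. The other amacrine genes, 9 genes led by Tfap2b, summed to 91.5, 189 and 14.4 CPM at E18 and 19.0 to 28.04 CPM at P5. Here 3 of the 6 tested were higher at E18 and none lower, again beside 20.8% and 22.5% of all genes.

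**Figure D2:**
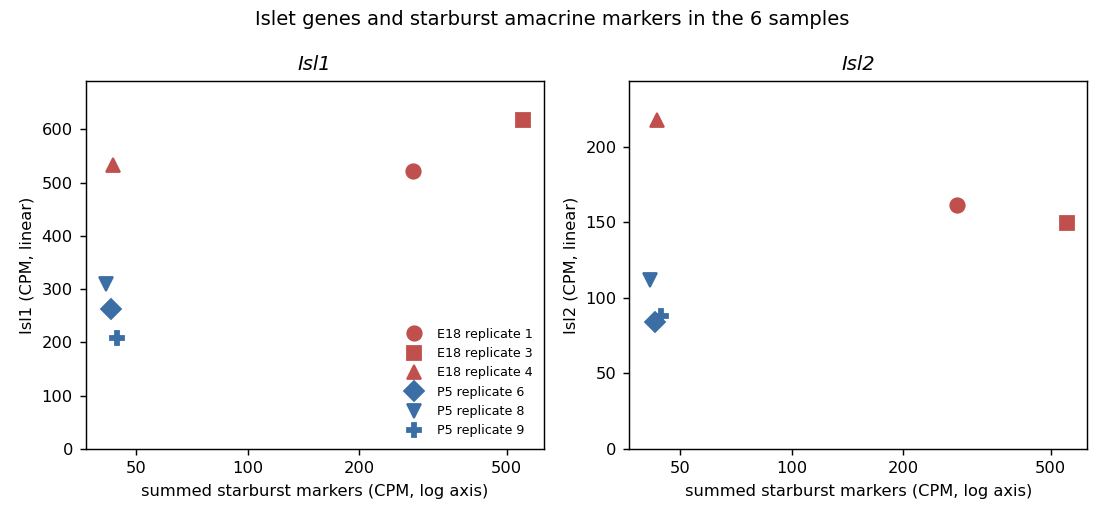
CPM of Isl1 and Isl2 (linear axis) against the summed CPM of 7 starburst amacrine markers (log axis), with 1 symbol per sample. E18 replicate 4 shares the summed marker level of the P5 samples, at 43.3 CPM, though not the level of each marker, and lies above them for both genes.

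Among the Brn3 genes, the most abundant members were called in neither direction. Pou4f1 (NM_011143, ENSMUSG00000048349.9, chromosome 14, 104461676 to 104467999, minus strand), which encodes Brn3a and regulates dendrite form in many RGC types, had 614, 622 and 682 CPM at E18 and 536, 712 and 483 CPM in P5 replicates 6, 8 and 9. The E18 samples lay close together and fell inside the P5 range. The means were 639 ± 37.4 and 577 ± 119.9 CPM (SD, n = 3 each), with a log2 fold change of 0.15 (SE 0.140, edgeR adjusted p = 0.417) and a 95% interval of 0.889 to 1.38 in fold. Without P5 replicate 8, its log2 fold change was 0.31 and it was called (edgeR adjusted p = 0.0225, against 0.0225 to 0.858 over the 14 alternatives). Pou4f2 (NM_138944, ENSMUSG00000031688.4, chromosome 8, 78433010 to 78436645, minus strand), which encodes Brn3b and is needed for most RGCs to survive, had 179, 174 and 189 CPM at E18 and 221, 255 and 184 CPM at P5. Only P5 replicate 9 fell within the E18 range. Its means were 181 ± 7.62 and 220.0 ± 35.9 CPM (SD, n = 3 each), and the log2 fold change of -0.28 (SE 0.122) did not pass (edgeR adjusted p = 0.0897, 95% interval 0.679 to 0.996 in fold before adjustment). Without P5 replicate 9 it was -0.40 and was called (edgeR adjusted p = 0.0186, against 0.0186 to 0.237 over the alternatives).

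Pou4f3 (NM_138945, ENSMUSG00000024497.4, chromosome 18, 42394539 to 42397249, plus strand) encodes Brn3c, which marks a smaller subset of RGCs and the hair cells of the ear. It had 28.3, 26.8 and 33.9 CPM at E18 and 39.4, 50.9 and 39.4 CPM at P5. Every P5 sample lay above every E18 sample. The means were 29.7 ± 3.76 and 43.2 ± 6.63 CPM (SD, n = 3 each), and the log2 fold change was -0.54 (SE 0.139, edgeR adjusted p = 0.0139), or 1.46-fold higher at P5. The call was lost without E18 replicate 1 (edgeR adjusted p = 0.0531) or E18 replicate 3 (edgeR adjusted p = 0.0660), with the direction kept.

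Levels of the Brn3 genes were also compared with each other. Their CPM per kilobase of the RefSeq transcript was, in total, 206, 206 and 227 for the E18 samples and 206, 261 and 183 for the P5 samples, so the family total overlapped between the ages. Within that total, Pou4f1 took 67.0% to 68.1% at E18 and 58.5% to 61.3% at P5, Pou4f2 took 26.0% to 27.1% and 30.5% to 33.4%, and Pou4f3 took 5.52% to 6.33% and 8.10% to 9.14%. In each of these shares the E18 samples and the P5 samples did not overlap. The count ratio of Pou4f1 to Pou4f2, from which gene length and library scaling cancel when ages are compared, was 3.43, 3.57 and 3.61 at E18 and 2.43, 2.79 and 2.63 at P5. It was 1.35-fold higher at E18, a difference of 0.44 on the log2 scale between 1.82 ± 0.0397 and 1.38 ± 0.1002 (SD, n = 3 each; two-sided exact permutation p = 0.1, the smallest that 3 samples against 3 allow, and adjusted p = 0.15 over the 6 pairs of genes compared). P5 replicate 8, where both genes were at their highest, had the P5 ratio nearest to E18. The ratio of Pou4f3 to Pou4f2 was 0.154 to 0.179 at E18 and 0.179 to 0.215 at P5, with overlap between the ages (two-sided exact permutation p = 0.2, adjusted p = 0.24).

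**Figure D3:**
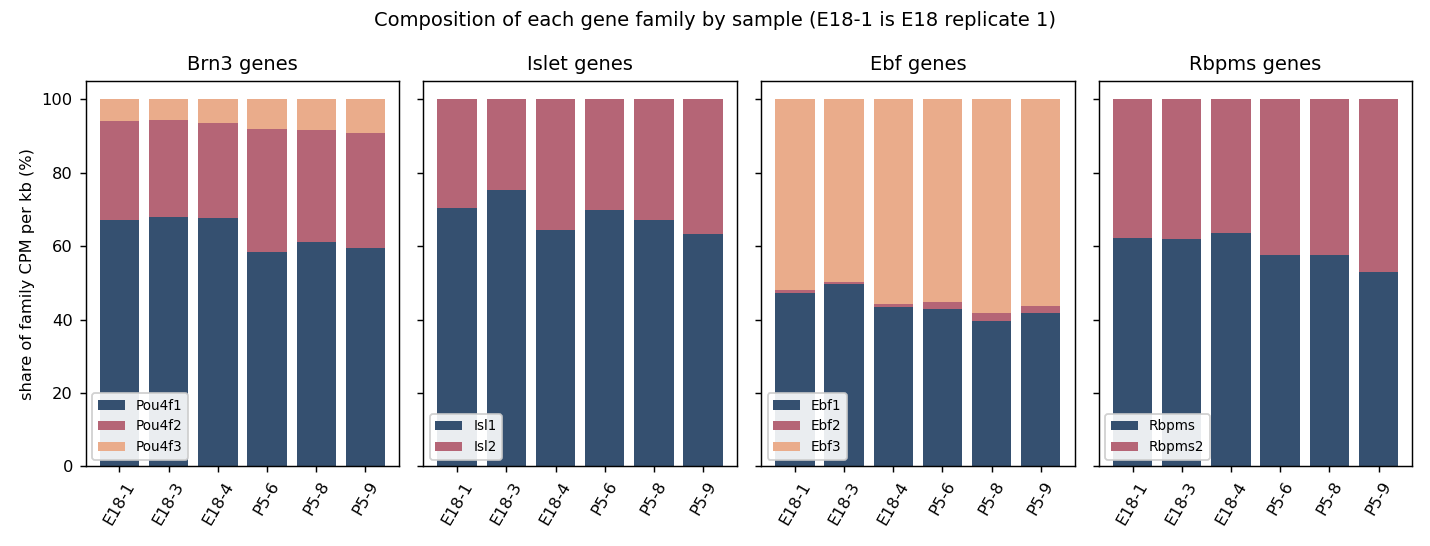
Share of each gene in the summed CPM per kilobase of its family, in percent, with 1 bar per sample. The Pou4f1 part of the Brn3 bars falls from 67.0% to 68.1% at E18 to 58.5% to 61.3% at P5, and the Islet bars show no such step.

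The Islet pair, in contrast, fell while its internal ratio overlapped between the ages. Summed CPM per kilobase of Isl1 and Isl2 was 294, 326 and 329 at E18 and 149.4, 183 and 129.9 at P5, with no overlap. The count ratio of Isl2 to Isl1 was 0.310, 0.243 and 0.408 in E18 replicates 1, 3 and 4 and 0.320, 0.362 and 0.425 in P5 replicates 6, 8 and 9. The E18 samples spread more widely in this ratio than the difference between ages, which was -0.23 on the log2 scale (two-sided exact permutation p = 0.4, adjusted p = 0.4). The lowest ratio was in E18 replicate 3, the sample with the largest starburst sum, and the highest at E18 was in E18 replicate 4, the sample with the smallest at that age; the part of starburst RNA in this ratio was not tested.

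The Ebf genes, helix-loop-helix factors that follow Pou4f2 in RGC differentiation, went in different directions. Ebf1 (NM_007897, ENSMUSG00000057098.14, chromosome 11, 44617317 to 45008091, plus strand) had 484, 507 and 481 CPM at E18 and 397, 401 and 346 CPM at P5. The E18 samples were within 27 CPM of each other and above all P5 samples. The means were 491 ± 14.6 and 381 ± 30.4 CPM (SD, n = 3 each), which gave a log2 fold change of 0.36 (SE 0.0884, edgeR adjusted p = 0.0112), or 1.29-fold. Without E18 replicate 3 the call was lost (edgeR adjusted p = 0.0523) at a log2 fold change of 0.34. Ebf3 (NM_010096, ENSMUSG00000010476.14, chromosome 7, 137193673 to 137314445, minus strand) had 431, 411 and 498 CPM at E18 and 414, 478 and 377 CPM at P5. These samples were interleaved, with a log2 fold change of 0.08 (SE 0.115, edgeR adjusted p = 0.607) and an interval of 0.881 to 1.27 in fold. Without E18 replicate 4 the sign of this small difference turned, to -0.006.

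Ebf2 (NM_010095, ENSMUSG00000022053.13, chromosome 14, 67233292 to 67430918, plus strand) was the scarcest of the 10 genes and had the largest fold change among them. It had 6.65, 5.42 and 5.51 CPM at E18 and 14.01, 16.4 and 11.3 CPM at P5. The lowest P5 sample was above the highest E18 sample. Its means were 5.86 ± 0.687 and 13.9 ± 2.51 CPM (SD, n = 3 each), which gave a log2 fold change of -1.25 (SE 0.170, edgeR adjusted p = 0.000961), or 2.37-fold higher at P5. The call held in all 14 alternatives set for it, with log2 fold changes of -1.38 to -1.13 when each sample was left out. Against Ebf3, the count ratio of Ebf2 was 0.0155, 0.0132 and 0.0111 at E18 and 0.0338, 0.0342 and 0.0301 at P5, a 2.49-fold higher ratio at P5 (two-sided exact permutation p = 0.1, adjusted p = 0.15). The ratio of Ebf1 to Ebf3 was 1.123, 1.24 and 0.965 at E18 and 0.958, 0.839 and 0.919 at P5 (two-sided exact permutation p = 0.1, adjusted p = 0.15), with E18 replicate 4 just above the highest P5 sample. Annotated antisense genes share 6.12% of the exon bases of Ebf2 and 3.85% of those of Ebf3, and since no source used here says whether counting used strand, some of their reads could belong to the antisense genes. No other gene of the 10 shares exon bases with another annotated gene.

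Of the Rbpms genes, Rbpms2 was higher at P5 and Rbpms was not called. Rbpms (NM_019733, ENSMUSG00000031586.17, chromosome 8, 33782643 to 33929863, minus strand) had 283, 276 and 319.8 CPM at E18 and 329, 326 and 291 CPM at P5. The ages overlapped, with a log2 fold change of -0.11 (SE 0.0952, edgeR adjusted p = 0.392) and an interval of 0.799 to 1.08 in fold. Rbpms2 (NM_028030, ENSMUSG00000032387.15, chromosome 9, 65629648 to 65660528, plus strand) had 135, 131 and 143 CPM at E18 and 189, 188 and 201 CPM at P5. These were tight groups with a clear gap. Its means were 136 ± 6.02 and 193 ± 7.33 CPM (SD, n = 3 each), which gave a log2 fold change of -0.50 (SE 0.0824, edgeR adjusted p = 0.00213), or 1.41-fold higher at P5, and the call held in all 14 alternatives set for it. The count ratio of Rbpms2 to Rbpms was 0.476, 0.477 and 0.447 at E18 and 0.574, 0.576 and 0.692 at P5, 1.31-fold higher at P5 (two-sided exact permutation p = 0.1, adjusted p = 0.15). Since vascular muscle also expresses these genes, and pericytes express Ebf1, their markers were examined. The 12 genes of pericytes, smooth muscle and endothelium summed to 19.2 to 76.2 CPM at E18 and 15.7 to 19.8 CPM at P5, most of it Kdr at E18, and without Kdr the other 11 summed to 5.07 to 6.65 and 8.54 to 10.9 CPM. Of the 9 tested, 1 was higher at E18 (Kdr), 2 were lower (Rgs5 and Pecam1) and 6 were not called, beside 20.8% higher and 22.5% lower over all genes. The pericyte gene Rgs5 had 0.0964, 0.107 and 0.133 CPM at E18 and 2.44, 1.47 and 3.08 CPM at P5, 20.6-fold higher at P5 (edgeR adjusted p = 0.000166). The endothelial gene Pecam1 had 0.686 ± 0.181 and 2.41 ± 0.293 CPM (SD, n = 3 each), 3.51-fold higher at P5 (edgeR adjusted p = 0.00123). These genes moved in the direction of Rbpms2, and the part of vascular RNA in its level was not tested. The smooth muscle gene Myh11 stood at 0.711 to 1.07 CPM and Pdgfrb, another pericyte gene, at 0.068 to 0.759 CPM over all samples, and neither was called.

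**Figure D4:**
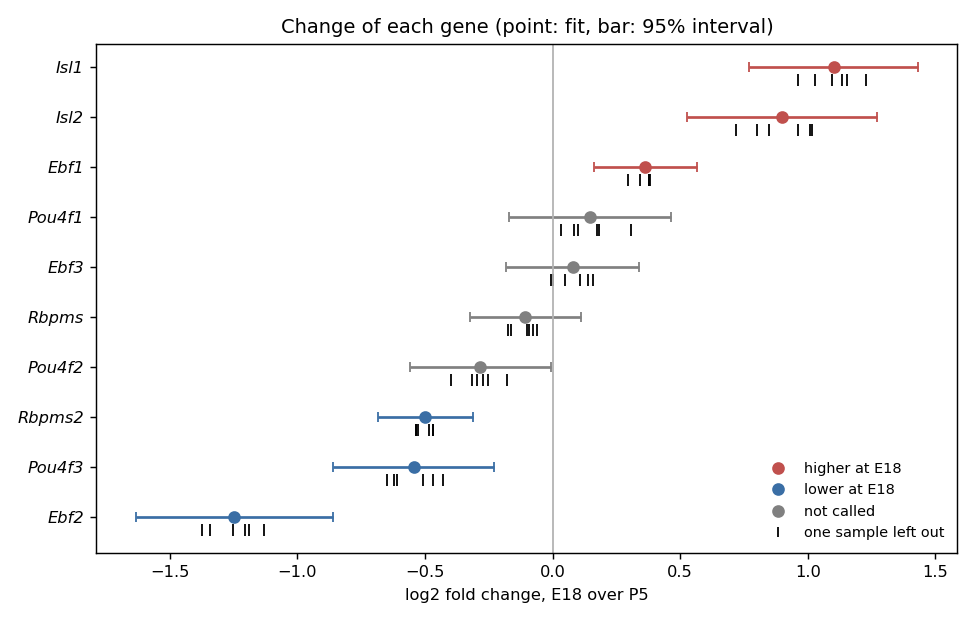
Fitted log2 fold change of E18 over P5 for each gene, with its 95% interval, coloured by call, and ticks for fits in which one sample was dropped. Isl1 and Isl2 lie at 1.10 and 0.90, Ebf2 lies at -1.25, and the intervals of Pou4f1, Ebf3 and Rbpms span 0.

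The level of each gene was compared with the others per kilobase of transcript. At E18 the order of CPM per kilobase was Isl1 (222 ± 20.7), Pou4f1 (144 ± 8.42), Rbpms (114.9 ± 9.31), Isl2 (95.1 ± 19.5), Ebf3 (92.3 ± 9.46), Ebf1 (82.0 ± 2.44), Rbpms2 (68.6 ± 3.03), Pou4f2 (56.4 ± 2.38), Pou4f3 (12.6 ± 1.59) and Ebf2 (1.35 ± 0.158), as mean and SD over 3 samples. Rbpms and Isl2, and Isl2 and Ebf3, overlapped between samples, and the other neighbours did not. At P5 the order was Pou4f1 (129.8 ± 27.0), Rbpms (124 ± 8.43), Isl1 (103 ± 20.3), Rbpms2 (96.9 ± 3.69), Ebf3 (87.4 ± 10.6), Pou4f2 (68.7 ± 11.2), Ebf1 (63.8 ± 5.08), Isl2 (51.0 ± 8.15), Pou4f3 (18.32 ± 2.81) and Ebf2 (3.19 ± 0.576). At that age each neighbouring pair from Pou4f1 down to Isl2 overlapped between samples, and only Pou4f3 and Ebf2 stood apart. By this length Isl1 led at E18, whereas at P5 it lay in a run of genes that could not be ordered beyond their spread. The order rests on the transcript length chosen: with all annotated exons merged, Rbpms moved from position 3 to 8 at E18 and from 2 to 5 at P5. Isl1 at E18, Pou4f1 at P5, and Pou4f3 and Ebf2 at both ages kept their places by mean. With merged exons, however, Isl1 (131.7 to 155.8) and Pou4f1 (131.4 to 146.0) overlapped at E18. Pou4f1 was the higher of them in E18 replicate 4 (146.0 against 134.8), so the lead of Isl1 did not hold beyond the spread.

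Samples of one age differed in common across the genes. E18 replicate 4 was the highest E18 sample for 7 of the 10 genes, the exceptions being Isl1, Ebf1 and Ebf2. P5 replicate 8 was the highest P5 sample for 8 genes and P5 replicate 9 the lowest for 8, with median deviations from the P5 mean of 0.24 and -0.15 on the log2 scale. The same P5 samples also differed in genes of RGC maturity. Slc17a6, the vesicular glutamate transporter of RGCs, had 762, 531 and 939 CPM in P5 replicates 6, 8 and 9 and 256 to 316 CPM at E18. Sox11, a factor of immature neurons, had 224, 283 and 119 CPM in the same P5 samples and 832 to 943 CPM at E18. In both genes P5 replicate 8 was the P5 sample nearest to E18 and P5 replicate 9 the farthest. Among the other called pan-RGC markers, Thy1, Nefl, Nefh and Tubb3 had this order, and Gap43 and Sncg did not. P5 replicate 6 was the nearest for Gap43 (1381, 1296 and 1068 CPM in P5 replicates 6, 8 and 9). For Sncg (691, 628 and 673 CPM, against 819 to 908 CPM at E18) P5 replicate 8 was the farthest. The 10 genes did not share the order of Slc17a6 and Sox11 either. P5 replicate 8 was the nearest to E18 for Isl1, Isl2, Ebf1 and Rbpms2. It was the farthest for Pou4f3 (50.9 CPM) and Ebf2 (16.4 CPM), and for Pou4f2 (255 CPM), which was not called. The part of RGC maturity in the levels of the 10 genes was not tested.

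Factors that act upstream of Pou4f2 and Isl1, or beside them, included 6 genes called higher at E18. Of 10 such genes, all tested, 6 were higher at E18, none was lower and 4 did not pass, beside 20.8% higher and 22.5% lower over all genes tested. The median log2 fold change was 1.28 in the list and 0.005 over all genes tested. This list, like the others, was chosen with earlier results of these data known, so its count and median are a description and no independent test. Sox11 had a log2 fold change of 2.06 (SE 0.268, edgeR adjusted p = 0.000806), and Sox4, its close relative, fell from 586 ± 40.3 to 221 ± 83.5 CPM (SD, n = 3 each; log2 fold change 1.41). Neurog2, a proneural factor of progenitors, had 15.9, 23.8 and 2.93 CPM in E18 replicates 1, 3 and 4 and 0.659 to 1.64 CPM at P5, with the highest values in the samples that had the largest progenitor and amacrine sums. Its log2 fold change was 3.56. Atoh7, the proneural gene at the top of the RGC program, stood at 0.265 to 0.663 CPM at E18 and 0.170 to 0.282 CPM at P5 (edgeR adjusted p = 0.0896). Pax6, the most abundant gene of the list, did not pass either (log2 fold change 0.30, edgeR adjusted p = 0.0601).

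Genes known to depend on Pou4f2 or Isl1 included some called in each direction. Of 13 such genes, 4 were higher at E18, 4 were lower and 5 did not pass, beside 20.8% higher and 22.5% lower over all genes. Their median log2 fold change was 0.11. Leaving out each sample gave 3 to 5 higher and 3 to 4 lower. Ablim1, higher at E18 (0.35), kept its call only without P5 replicate 8 (edgeR adjusted p = 0.0592 to 0.105 in the other such fits). Olfm1, lower at E18, lost its call without E18 replicate 3 (edgeR adjusted p = 0.0512), and Mstn gained one without P5 replicate 8 (edgeR adjusted p = 0.00798). Eomes, a factor of the light-sensing and related RGC types, had 19.5, 11.2 and 8.85 CPM at E18 and 50.9, 51.0 and 62.2 CPM at P5. This was a log2 fold change of -2.05 (SE 0.264, edgeR adjusted p = 0.000782), with no overlap. The neurofilament gene Nefl (-0.68) and the Iroquois factor Irx6 (-0.76) were lower at E18 as well, whereas Irx2 (0.77), the growth-cone gene Gap43 (0.51) and the synuclein Sncg (0.40) were higher, all as log2 fold changes past the threshold. Irx2 and Irx6 are relatives that moved in opposite directions, with 147 ± 29.3 and 55.1 ± 3.80 CPM at E18 and 86.4 ± 13.0 and 93.2 ± 9.33 CPM at P5 (SD, n = 3 each). Shh, the hedgehog ligand that RGCs release, had 28.1 to 34.9 CPM at E18 and 28.7 to 35.1 CPM at P5 (log2 fold change -0.01, edgeR adjusted p = 0.941).

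**Figure D5:**
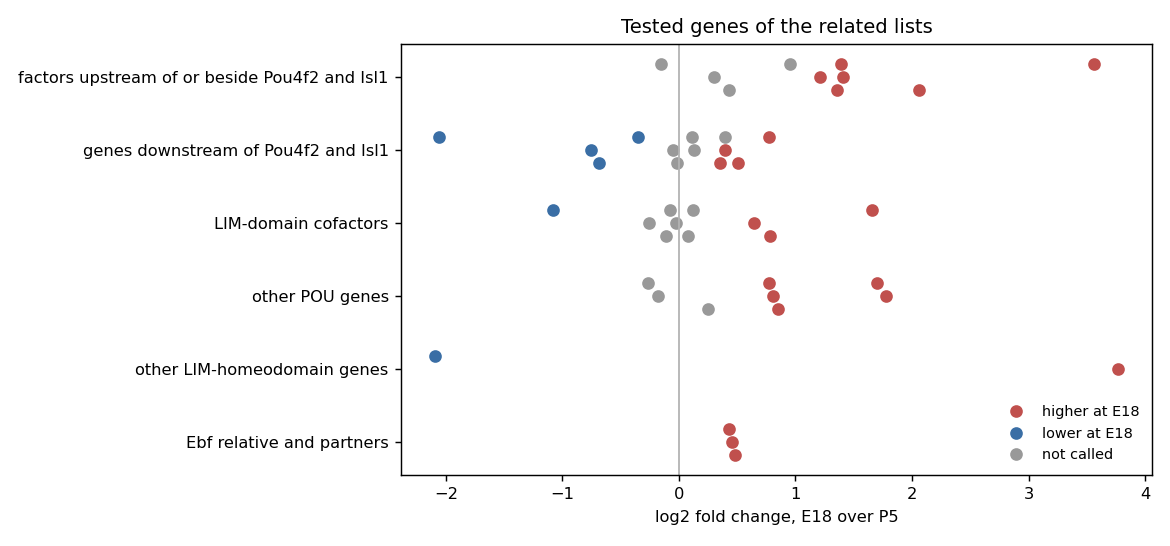
Log2 fold change of E18 over P5 for each tested gene of 6 lists related to the Brn3, Islet and Ebf factors, coloured by call and spread vertically only for legibility. The upstream factors lie mostly to the right, with 6 genes higher at E18 and none lower, and the downstream genes are split, with 4 higher and 4 lower. The lists were chosen with earlier results of these data known.

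Islet proteins work in complexes with the adaptor Ldb1 and its stabilisers of the Ssbp family, and Lmo proteins compete for the same adaptor. Of 10 such cofactors, 3 were higher at E18, 1 was lower and 6 did not pass, beside the same 20.8% and 22.5% of all genes, with a median log2 fold change of 0.03. Ldb1 had 151, 149 and 154 CPM at E18 and 71.4, 120.3 and 71.7 CPM at P5, a log2 fold change of 0.78 (SE 0.190, edgeR adjusted p = 0.0111). P5 replicate 8 again lay nearest to E18, and the call was lost without P5 replicate 6 (edgeR adjusted p = 0.0501). Ssbp3 was higher at E18 as well (0.64), and Ldb2, the relative of Ldb1, was lower, with 16.9 ± 2.87 and 35.7 ± 6.70 CPM (SD, n = 3 each; log2 fold change -1.08, edgeR adjusted p = 0.00188). Lmo3 passed at 1.02 CPM at E18 (log2 fold change 1.66), a call lost without E18 replicate 3 (edgeR adjusted p = 0.0643), and Lmo4, at 74.9 to 113 CPM, did not.

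Of 11 POU genes outside the Brn3 family, 8 were expressed highly enough to test, and 5 of these were higher at E18 (20.8% of all genes) and none lower (22.5%), with a median log2 fold change of 0.79. They were far scarcer than Pou4f1 in counts, and Pou2f2 (1.78), Pou3f3 (1.70) and Pou3f1 (0.85) had the largest log2 fold changes. Of these, Pou3f3 was close to the floor, with 0.619 ± 0.155 CPM at E18 and 0.189 ± 0.0560 CPM at P5 (SD, n = 3 each). The call of Pou3f1 was lost without E18 replicate 1, P5 replicate 6 or P5 replicate 9 (edgeR adjusted p = 0.0654, 0.0786 and 0.0624). The Ebf partners Zfp423 and Zfp521, zinc-finger proteins that bind Ebf factors, and the relative Ebf4 were all higher at E18, with log2 fold changes of 0.48, 0.43 and 0.46. Only Zfp521 passed without E18 replicate 1 or without P5 replicate 6, so that the count of this list was 1 of 3 there, and Ebf4 also failed without E18 replicate 3 or E18 replicate 4. Of the 10 other LIM-homeodomain genes, 8 were too scarce to test, and the 2 tested were Lhx2, with 8.26, 1.55 and 0.464 CPM at E18 and 0.085 to 0.335 CPM at P5 (3.77, in the order of the progenitor sum at E18), and Lhx9, with 0.302 ± 0.241 and 1.27 ± 0.132 CPM (SD, n = 3 each; -2.09). Lhx2 no longer passed once P5 replicate 6 or P5 replicate 9 was dropped (edgeR adjusted p = 0.0603 and 0.0558). None of these 10 genes reached 10 CPM in any sample, against at least 83.8 CPM for Isl1 and Isl2.

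The genes whose pattern over the 6 samples was nearest to that of each called gene were sought among 9725 tested genes averaging 10 CPM or more, by the root mean square distance of log2 CPM after centring each gene on its mean. For Isl1 they were Golm1 (distance 0.0540) and D630045J12Rik (0.0587), and for Isl2 they were Apc2 (0.0969) and Zfp503 (0.101). Golm1 and D630045J12Rik had log2 fold changes of 1.11 and 1.13, beside 1.10 for Isl1. For Ebf1 they were Sco1 (0.0147) and Mtpap (0.0204), for Ebf2 AI504432 (0.0807) and Bhlhe22 (0.118), for Pou4f3 Neurl1b (0.0594) and Pald1 (0.0695), and for Rbpms2 Ndufaf7 (0.0223) and Lrrc8b (0.0290). With 6 samples in 2 groups, near neighbours are to be found for most genes, and the distances are a description with no test.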

How the data were processed

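RNA-seq of immunopanned RGCs was compared between 3 E18 and 3 P5 samples, grouped by their titles. Libraries were depleted of ribosomal RNA (the labels name polyA RNA) and read as pairs of 100 bases. The authors aligned to mm10 by STAR 2.4.0, used HT-seq 0.6.1 with the RefSeq annotation and deposited raw counts per gene. Strand and multi-mapping settings are not given in the sources used here, so reads shared by near-identical genes are uncertain. The E18 replicate 1 column is named with the numbers 1, 2 and 5, and whether it pools preparations is not stated. Another 9 per-sample columns (scaled counts and log ratios) and the authors' own fold changes, p-values and ranks were not used.

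Counts were filtered with filterByExpr, normalized by TMM and tested with edgeR 4.0.16 (quasi-likelihood) in R 4.3.3, adjusting by Benjamini-Hochberg and calling at 0.05. The fit was tested on simulated data. Totals were 81213639 to 114512853 counts per sample. Samples of one age differed by more than sampling noise (chi-square per degree of freedom 30.5 to 141), so none was counted as a duplicate. Ratios of 2 genes used counts plus 0.5 and a two-sided exact permutation test. Lengths and coordinates are from GENCODE M21 (mm10), with the transcript of the deposited RefSeq accession as the length. The members and lists were chosen with earlier results of these data known. The genes named are the 10 members, at most 3 called genes per direction from each related list, the most abundant gene of each marker list and the 2 nearest patterns, and other genes were named after their values were seen. The alternatives tried included DESeq2 1.42.0, the likelihood ratio and exact tests of edgeR, other normalizations and filters, and leaving out each sample. Marker lists not given in the results were of horizontal cells, photoreceptors, glia and microglia, led by Sept4, Rom1, Glul and Aif1. At E18 they summed to 44.4 to 69.5, 10.7 to 17.7, 322 to 355 and 2.09 to 3.04 CPM. At P5 they summed to 53.3 to 66.7, 15.2 to 25.4, 244 to 285 and 1.68 to 2.23 CPM, so only the glia sums did not overlap. Genes called higher at E18 numbered 2 of 4 tested, 3 of 10, 1 of 7 and 1 of 7, and genes called lower 1, 2, 0 and 0.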

Additional observations from a re-analysis of the deposited data

How the results depend on the processing

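No paired analysis was possible because E18 and P5 samples share no replicate number. Of 140 combinations of the 10 genes with the 14 alternatives set for them, 134 kept direction and side of the threshold, among them all 80 that left out no sample (DESeq2, the exact and likelihood ratio tests, other normalizations and filters). The exceptions left out 1 sample and are given beside Pou4f1, Pou4f2, Pou4f3, Ebf1 and Ebf3. Leaving out each sample moved the genes higher at E18 to between 2 and 4 and those lower to between 2 and 4.

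E18 replicate 4 alone against P5, added after the data were seen, called 2 genes higher (Isl1 and Isl2) and 1 lower (Ebf2). Pou4f3, Ebf1 and Rbpms2 kept their direction (-0.34, 0.34 and -0.42) and lost the call, and Rbpms turned sign, to 0.031. This comparison has 1 E18 library, gives no spread at E18 and assumes that the library varies like the P5 samples, so its calls support nothing. E18 replicate 4 alone also gave 1 upstream factor lower (Neurod1), 2 downstream genes higher and 2 lower, 1 cofactor higher and 0 lower, 1 other POU gene higher, 0 other LIM-homeodomain genes higher and 1 of the Ebf relative and partners higher. Its log2 ratio differences were -0.13 for Pou4f3 to Pou4f2, 0.16 for Isl2 to Isl1 (reversed), 0.0934 for Ebf1 to Ebf3 and -1.56 for Ebf2 to Ebf3. The causes were not tested.

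Without E18 replicate 4, in contrast to the comparison above, Ebf3 turned sign, to -0.006. Leaving out each sample gave 1 to 2 cofactors lower at E18 (2, with Ssbp2, without P5 replicate 9), 1 to 3 other LIM-homeodomain genes higher and 1 to 3 of the Ebf relative and partners higher. With no filter on low counts, 3 other LIM-homeodomain genes were higher (Lhx1 and Lhx4 added), and with at least 1 CPM in 3 samples 0 were, since Lhx2 was not tested. Over the samples left out, the log2 ratio differences were 0.39 to 0.48 for Pou4f1 to Pou4f2, -0.34 to -0.21 for Pou4f3 to Pou4f2, -0.42 to -0.04 for Isl2 to Isl1, 0.20 to 0.38 for Ebf1 to Ebf3, -1.43 to -1.19 for Ebf2 to Ebf3 and -0.44 to -0.30 for Rbpms2 to Rbpms, and a pseudocount of 5 changed none beyond the spread between samples. The 10 genes had at least 499 reads in each sample. The filter on low counts left 8 of 10 other LIM-homeodomain genes, 3 of 11 other POU genes and some marker genes (Vsx1 and Grm6 among them) untested. Pou3f3 and Lmo3 were not tested when at least 1 CPM in 3 samples was required.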
